A study of Mus musculus with 2 samples.

Results

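The genes described here are Cdh1, Epcam, Krt8 and Krt19, 4 transcripts of epithelial cells among the 479 genes of a Xenium In Situ panel, an assay that images RNA molecules one by one in sliced tissue and sums them for each outlined cell. They were taken by name, as the rows Cdh1 (ENSMUSG00000000303), Epcam (ENSMUSG00000045394), Krt8 (ENSMUSG00000049382) and Krt19 (ENSMUSG00000020911), and all 4 were followed in every comparison. The material was 1 section of a tumour grown from the mouse line labelled EKP and 1 section of a tumour from the line labelled RKP, in a series whose title concerns lineage plasticity in diffuse gastric cancer with a mutant form of RHOA. Each line was grown in dishes, mixed with Matrigel and placed subcutaneously, 3000000 cells a site, in the left and right flank of C57BL/6 mice aged 5 weeks, and both tumours were embedded in 1 block. What the letters EKP and RKP stand for, which line carries the mutant RHOA and whether Cdh1 is altered in either line were not stated in the labels. The tumours are allografts of cultured lines outside the stomach, and RNA counts give no measure of the protein. With 1 section in each group there is no test between groups, and every interval below is a 95% interval that covers counting error only.

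Epithelial cells hold together through E-cadherin, the calcium-dependent adhesion protein of adherens junctions encoded by Cdh1, and through EpCAM, a membrane glycoprotein encoded by Epcam. Their cytoskeleton carries keratin filaments built from pairs of a type II and a type I keratin. Krt8 encodes the type II keratin of simple epithelia, and Krt19 encodes the smallest type I keratin, common in ductal and gastrointestinal epithelium. Loss of E-cadherin is a textbook feature of diffuse gastric cancer. Transcription factors of the Snail family, among them those encoded by Snai1 and Snai2, bind the E-box CAGGTG and are known to repress epithelial genes.

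The promoters of the pair of members that a RefSeq promoter table held, Epcam and Krt8, are shown because both of these genes define the cell classes below. Each run is the 250 bases before the annotated start, 5′ to 3′ in the direction of the gene, in build GRCm38.p6, with CAGGTG or its reverse complement CACCTG in capitals. The Epcam window is chr17:87635729-87635978 on the plus strand and the Krt8 window is chr15:102004343-102004592 on the minus strand.
Epcam: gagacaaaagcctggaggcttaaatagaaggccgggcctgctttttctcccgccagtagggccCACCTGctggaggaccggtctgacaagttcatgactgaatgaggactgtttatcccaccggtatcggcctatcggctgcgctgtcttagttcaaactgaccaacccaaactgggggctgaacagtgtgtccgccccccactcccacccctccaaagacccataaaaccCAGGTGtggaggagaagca
Krt8: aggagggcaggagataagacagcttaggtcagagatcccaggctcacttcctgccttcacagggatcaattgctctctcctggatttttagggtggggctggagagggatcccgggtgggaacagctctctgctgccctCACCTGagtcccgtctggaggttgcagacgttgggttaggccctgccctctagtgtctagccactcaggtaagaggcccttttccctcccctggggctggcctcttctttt
The Epcam window held the motif 2 times, starting 187 and 19 bases before the start, and the Krt8 window held it 1 time, 111 bases before. Over all 32851 windows of this length in the table, searched on both strands, 17.2% held the motif and 2.06% held it 2 or more times. The match describes these letters and says nothing of binding.

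The EKP section held 261111 segmented cells with a median of 84 gene counts and the RKP section 255744 with a median of 154. Only cells with 80 or more gene counts entered the joint analysis, which left 133173 EKP cells (51.0%) and 201447 RKP cells (78.8%), with medians of 191 and 185. In these cells a count of 3 or more for Krt8 defined the Krt8-positive cells, 64022 in EKP (48.1%) and 109186 in RKP (54.2%). Krt8-positive cells with 0 or 1 Epcam counts are called Epcam-low and those with 2 or more Epcam-high. The sections shared 19 cell names, and none of those cells had the same counts. The level of a gene in a set of cells is its summed count per 1000000 gene counts (CPM), and levels are compared only within a gene.

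As a check of the name epithelial, Cdh1 and Krt19, which the limits did not use, were set beside cells gated, at 2 or fewer Krt8 counts, on macrophage, neutrophil, T cell, fibroblast or endothelial markers, and both stood above every gate in Epcam-high cells. In Epcam-high cells the level of Cdh1 was 19961 CPM (EKP) and 16468 CPM (RKP), against 801 to 3247 over the 5 EKP gates and 924 to 4796 over the 5 RKP gates. For Krt19 the Epcam-high levels were 40338 and 35500.3 CPM, against 2981 to 7515 over the EKP gates and 2514 to 9236 over the RKP gates. Epcam reached 10573 CPM in the neutrophil gate of RKP. None of the gates was free of the 4 transcripts, so a low level in a cell is read below against these gates. In cells without any Krt8 count, Cdh1 stood higher in RKP (2936 CPM) than in EKP (1146 CPM), and in the macrophage gate its level was 4350 CPM in RKP (17393 cells) and 1995 CPM in EKP (6640 cells).

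The share of Krt8-positive cells without Epcam was alike in the sections. Epcam-low cells made up 24.7% of Krt8-positive cells in EKP (15785 cells, Clopper-Pearson interval 24.3 to 24.99) and 24.7% in RKP (26948 cells, 24.4 to 24.9). At exactly 0 counts of Epcam were 19.4% and 18.8%. The share depended on the limits: with 10 or more Krt8 counts it was 10.1% and 7.82%. Among cells whose host-list counts, the summed counts of 24 immune, stromal, vessel and muscle markers, were at most 2% of their gene counts, it was 7.29% in EKP and 16.6% in RKP, and 17.2% and 17.7% when the collagen gene Col1a1 was left out of that limit. Epcam-low cells were shallower, with a median of 208 gene counts in Epcam-low and 254 in Epcam-high cells of EKP, and 192 and 234 in RKP.

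Thinning every Krt8-positive cell at random to 80 gene counts, so that all cells have the same depth, showed how each transcript was spread. Epcam had a peak at 0 counts (26.3% of EKP and 25.8% of RKP cells), a dip at 1 count (11.1% and 11.4%) and a broad second mode around 3 counts (12.2% and 13.1%). Krt19 differed between the sections: in RKP 26.9% of cells had none, the most frequent value, while in EKP 16.9% had none and 17.6% had 1. Cdh1 declined steadily from 0 counts (41.7% and 44.9%) in both. Krt8, which chose the cells, was at 0 after thinning in 5.74% and 5.71%.

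**Figure D1:**
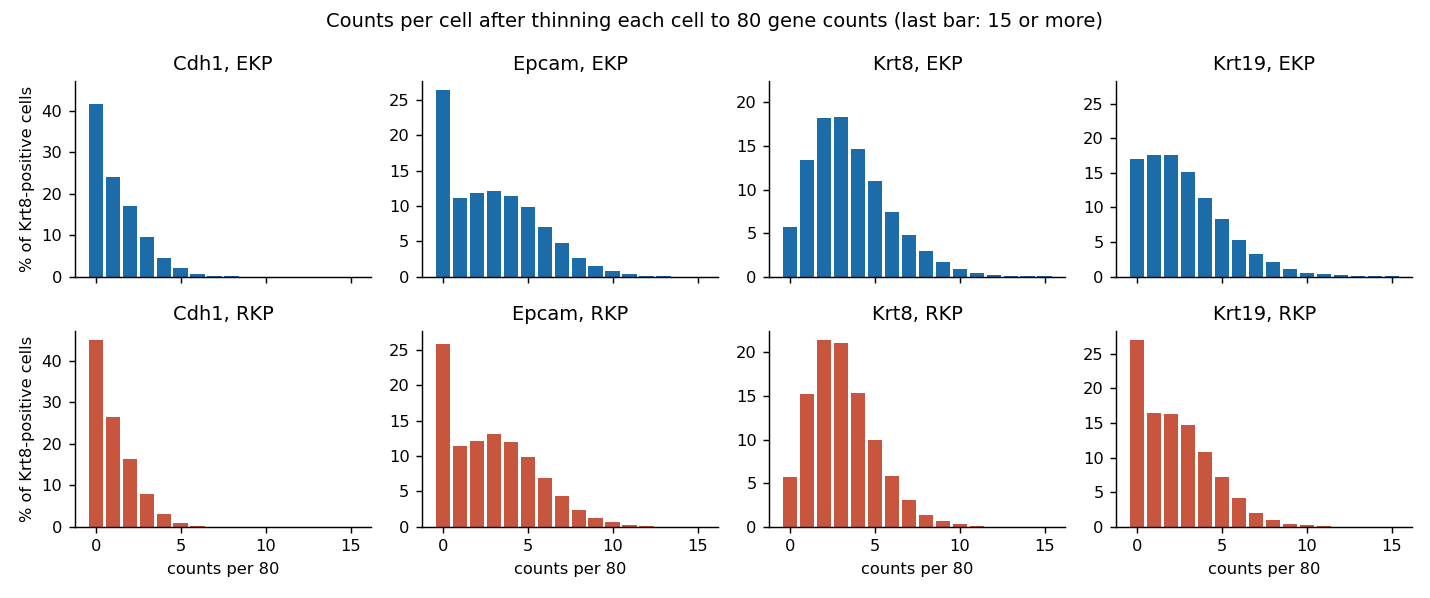
Share of Krt8-positive cells (vertical axis, percent) by the number of counts of each gene after thinning each cell to 80 gene counts (horizontal axis), with EKP above and RKP below. Epcam has a peak at 0 and a second mode near 3 in both sections, and Krt19 has its highest bar at 0 in RKP only, with 26.9% of cells.

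E-cadherin RNA was low where EpCAM RNA was low in both tumours. Cdh1 stood at 1905 CPM in Epcam-low and 19961 in Epcam-high cells of EKP, a ratio of 0.0955 (0.0932 to 0.0978), or 10.5-fold lower. In RKP it stood at 1851 against 16468 CPM, a ratio of 0.112 (0.110 to 0.115), or 8.90-fold lower. Per cell, the median Cdh1 count was 0 in Epcam-low cells of both sections (maximum 15 in EKP and 12 in RKP). In Epcam-high cells the median was 4 in EKP (quartiles 2 and 8) and 3 in RKP (2 and 6). At 80 counts a cell, Cdh1 was detected in 13.2% of Epcam-low and 73.1% of Epcam-high cells in EKP, and in 12.6% and 69.1% in RKP. The gates gave 5.50% to 20% in EKP and 6.38% to 27.0% in RKP, so detection of Cdh1 in Epcam-low cells lay within the range of cells gated on host markers in both sections. The ratio was deeper with 10 or more Krt8 counts, at 0.0736 in EKP and 0.0573 in RKP, and in RKP among cells with few host-list counts, at 0.0504. When cells were thinned to 80 counts before the limits were set, which lets cells with more Epcam into the low class, it was 0.302 and 0.339.

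Krt8 and Epcam were used to choose the cells, so their values are descriptions. Epcam stood at 960 against 48013 CPM in EKP and at 1147 against 47057 in RKP. Krt8 stood at 30190.1 CPM in Epcam-low and 46983 in Epcam-high cells of EKP, a ratio of 0.643, and at 27736 against 40873 in RKP, a ratio of 0.679. The median Krt8 count was 5 in Epcam-low cells of both sections, and 11 in EKP and 9 in RKP Epcam-high cells. On either side of the Epcam limit, cells with 1 count had Cdh1 at 3312 CPM and Krt19 at 17516 in EKP, and cells with 2 counts had 5609 and 20319.9. In RKP the same pairs were 3136 and 8189 CPM at 1 count, and 6088 and 15714 at 2 counts.

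Krt19 set the sections apart. In EKP it stood at 15252 CPM in Epcam-low and 40338 in Epcam-high cells, a ratio of 0.378 (0.375 to 0.381), or 2.64-fold lower. In RKP it stood at 3879 against 35500.3 CPM, a ratio of 0.109 (0.108 to 0.111), or 9.15-fold lower. The median Epcam-low cell had 2 Krt19 counts in EKP (quartiles 1 and 5) and 0 in RKP (0 and 1), while the median Epcam-high cell had 9 and 8. After thinning, Krt19 was detected in 58.5% of Epcam-low cells in EKP and in 21.7% in RKP, and in 91.1% and 89.9% of Epcam-high cells. The gates gave 17.9% to 32.5% in EKP and 17.1% to 40.6% in RKP. Detection in Epcam-low cells was therefore above every gate in EKP and within the range of the gates in RKP. Between the sections, Krt19 in Epcam-low cells was 3.93-fold lower in RKP, against 1.14-fold in Epcam-high cells.

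Krt19 had the lower ratio in RKP under each of 8 alternatives, and its size depended on the choice. In cells with few host-list counts the Krt19 ratio was 0.769 in EKP (1537 Epcam-low cells), which is less than 2-fold lower, and 0.0691 in RKP (8110 cells). When Col1a1, a collagen gene of the list, was left out of the same limit, a choice made after seeing the data, it was 0.433 in EKP (7845 cells), again more than 2-fold lower, and 0.0811 in RKP (13508 cells). In cells thinned before the limits it was 0.592 and 0.373, and with Epcam-low taken as 0 counts 0.364 and 0.0704.

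The 4 transcripts followed Epcam in different shapes. Cdh1 was higher at each step of Epcam count in both sections, from 1539 CPM at 0 counts to 24489 at 20 or more in EKP, and from 1439 to 19098 in RKP. Krt8 was nearly flat at the low end, with 30926 CPM at 0 counts, 27365 at 1 and 27119.9 at 2 in EKP, and 53199.8 at 20 or more. The lowest Krt8 level was at 2 counts in EKP and at 1 count in RKP (26131 CPM). Krt19 started at 14662 CPM in EKP and reached 46595, while in RKP it started at 2498 and reached 39361. Cells with higher Epcam counts were also deeper, with a median of 210 gene counts at 0 and 379 at 20 or more in EKP, and 191 and 391 in RKP. The host list took 7.03% of the counts at 0, 9.29% at 2 and 1.97% at 20 or more in EKP, and 4.59%, 7.58% and 1.85% in RKP. It was highest at 2 counts in both sections, next to the limit between the classes. Its part in these shapes was not tested.

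**Figure D2:**
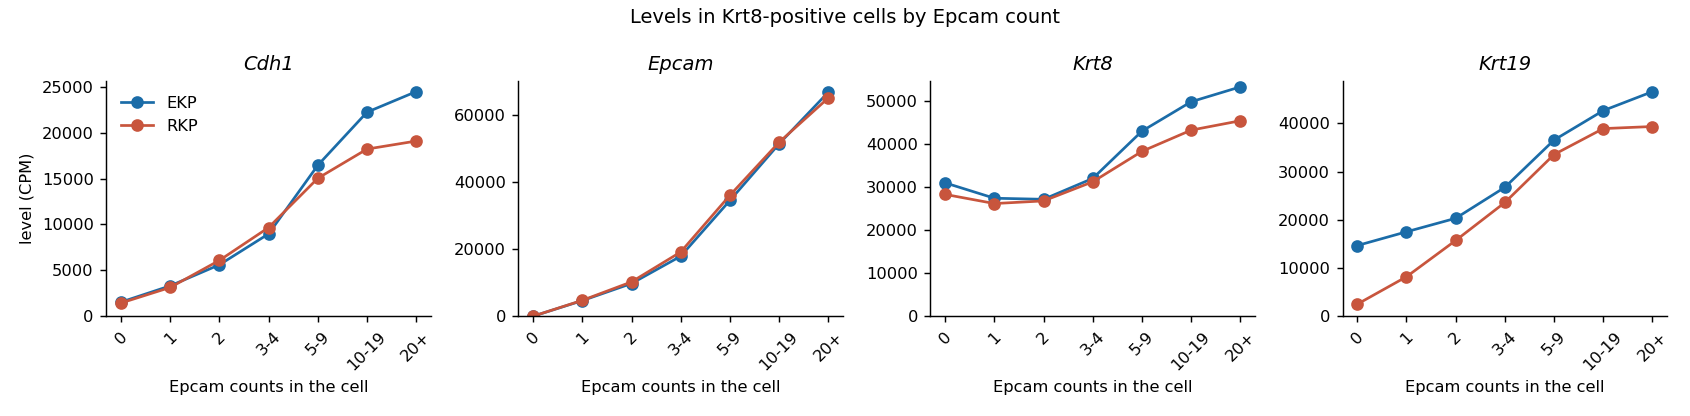
Level of each gene (vertical axis, CPM) in Krt8-positive cells grouped by their Epcam count (horizontal axis), with EKP in blue and RKP in red. Krt19 at 0 Epcam counts is 14662 CPM in EKP and 2498 in RKP, while the lines of Cdh1 lie together there, at 1539 and 1439.

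The ratios were also taken within narrow ranges of Krt8 count, which hold the level of the anchoring keratin nearly fixed. In EKP the Krt19 ratio stayed between 0.469 and 0.481 over 4 ranges, from 3 to 4 counts up to 20 or more. In RKP it went from 0.185 at 3 to 4 counts (12664 Epcam-low cells) through 0.117 and 0.0769 to 0.0652 at 20 or more (166 cells). Cdh1 had its higher ratios at low Krt8 counts in both sections, from 0.188 to 0.0769 in EKP and from 0.195 to 0.0467 in RKP. Both ratios were closer to 1 in shallow cells. At 80 to under 120 gene counts the Krt19 ratio was 0.570 in EKP and 0.225 in RKP, and at 400 or more it was 0.235 and 0.0642. For Cdh1 the same ranges gave 0.190 and 0.177, then 0.0592 and 0.0729.

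Within the Epcam-low cells, the 2 remaining transcripts combined in different ways. In EKP 55.3% of these cells kept Krt19 at 2 or more counts with Cdh1 at 0 or 1, and 35.4% had both at 0 or 1. In RKP 14.6% had Krt19 without Cdh1 and 77.2% had both at 0 or 1. Cdh1 at 2 or more counts without Krt19 was rare, at 3.05% and 4.61%, and both were at 2 or more in 6.30% and 3.57%. Among Epcam-high cells both were at 2 or more in 79.0% in EKP and 75.5% in RKP. The typical Epcam-low cell was thus Krt8 with Krt19 in EKP and Krt8 alone, of these 4 genes, in RKP.

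The Epcam-low cells were then split by their own Krt19 count. In EKP, Cdh1 varied little, at 1698 CPM at 0 Krt19 counts, 2182 at 5 to 9 and 1908 at 10 or more, while Krt8 went from 23705 to 45765 CPM. In RKP, Cdh1 went from 1330.0 CPM at 0 to 5632.5 at 5 to 9 and 6886 at 10 or more, and Epcam itself, within its limit of 1 count, from 693 to 3347 CPM. The last RKP class held 75 cells and that of EKP 1135. S100a4, a calcium-binding protein linked to cell motility, went the other way in RKP, from 42211 to 12936 CPM, and stood at 22880.1 and 27917 CPM in EKP. Cdh1 thus varied with Krt19 over a much wider range in the Epcam-low cells of RKP than in those of EKP. Host-list counts were 8.70% at 0 and 4.04% at 10 or more in EKP, and 4.46% at 0, 7.17% at 5 to 9 and 5.46% at 10 or more in RKP. Their part in these gradients was not tested.

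**Figure D3:**
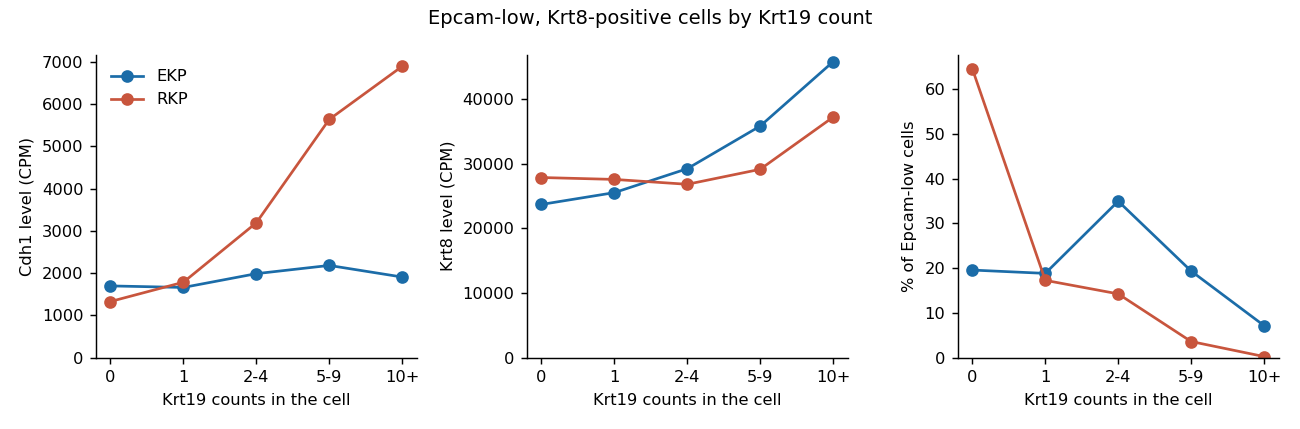
Epcam-low cells grouped by their Krt19 count (horizontal axis), with the level of Cdh1, that of Krt8 (vertical axes, CPM) and the percent of Epcam-low cells in each class, EKP in blue and RKP in red. Cdh1 stays between 1662 and 2182 CPM in EKP and goes from 1330.0 to 6886 CPM in RKP.

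Epcam-low cells were gathered in some stretches of the deposited cell lists. Positions in the section were not used here, so each list was cut into 10 successive parts as a partial stand-in for place, and the limit of 25% below was set after the values were seen. In EKP the share of Epcam-low cells ran from 4.595% to 86.6% over the parts, and 3 parts with 59.6% or more held 60.3% of them. In RKP 5 parts at 28.8% to 64.4% held 88.5% of them, and the other 5 stood at 5.09% to 6.44%. The Krt19 ratio in EKP was 0.357 to 0.507 in the rich parts and 0.295 to 0.453 in the poor ones, so the ranges overlapped. In RKP it was 0.0608 to 0.107 in the rich parts and 0.355 to 0.412 in the poor ones, with no overlap. This was not particular to Krt19, since the ratios of Cdh1, Epcam and Krt8 did not overlap between these RKP parts either. The share of panel genes that separate in this way was not computed. For Krt19 the sections did not overlap in their rich parts, and the poor parts of RKP lay within the range of the poor parts of EKP.

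The poor parts of RKP differed in other values as well. Krt19 in Epcam-low cells stood there at 12789 to 15560.2 CPM, against 2165 to 3620.37 in the rich parts. The Cdh1 ratio was 0.249 to 0.310 against 0.0729 to 0.102. Host-list counts in Epcam-low cells were 9.07% to 11.1% against 4.14% to 5.06%, and Krt19 in the fibroblast gate was 3305 to 5611 CPM against 1079 to 3721. In EKP the Cdh1 ratio was 0.0521 to 0.117 in the rich parts and 0.0960 to 0.224 in the poor ones. The part of the host-list counts in these ratios was not tested.

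**Figure D4:**
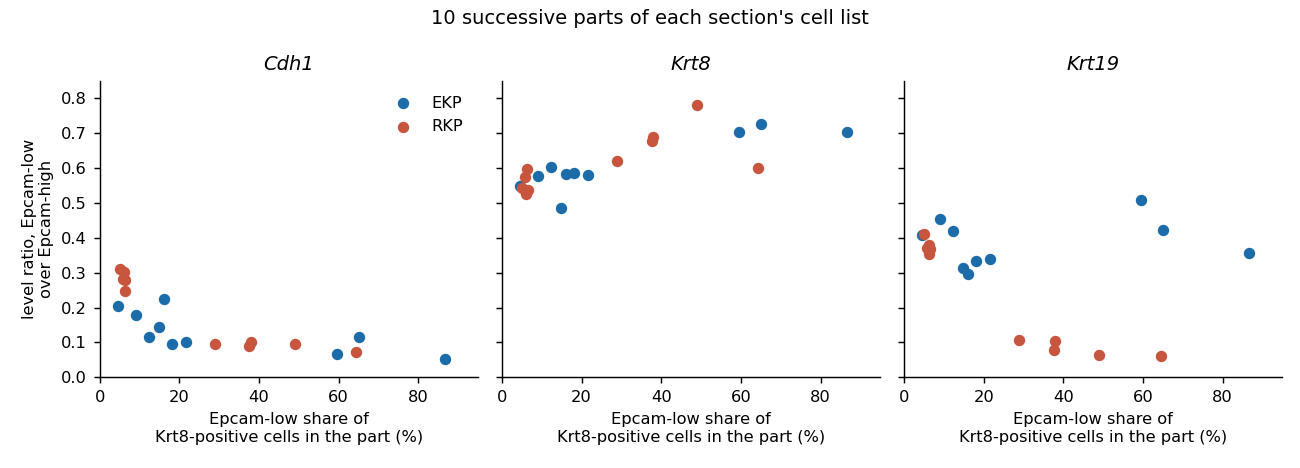
Ratio of Epcam-low to Epcam-high levels for Cdh1, Krt8 and Krt19 (vertical axis, linear) against the share of Epcam-low cells (horizontal axis, percent) in the 10 successive parts of each cell list, EKP in blue and RKP in red. The 5 RKP parts with 28.8% or more Epcam-low cells have Krt19 ratios of 0.107 or less, and no EKP part is below 0.295.

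The classes were also set with other genes, and the gene that anchors the cells has its own ratio held up by that choice. Among Krt8-positive cells with Cdh1 at 0 or 1, Epcam had a ratio of 0.215 in EKP and 0.282 in RKP, Krt19 of 0.503 and 0.357, and Krt8 of 0.671 and 0.744. With Krt19 at 0 or 1 instead, Epcam had a ratio of 0.130 and 0.0926, Cdh1 of 0.186 and 0.151 and Krt8 of 0.544 and 0.676. Taking Krt19 at 3 or more as the anchor, 18.7% of EKP cells but 6.29% of RKP cells had Epcam at 0 or 1, with Cdh1 ratios of 0.0996 and 0.247. With Cdh1 at 3 or more, 4.27% and 5.83% had Epcam at 0 or 1. Krt8, no longer the anchor, had ratios of 0.577 in EKP and 0.459 in RKP with the Krt19 anchor, and of 0.325 and 0.221 with the Cdh1 anchor. These classes had no Krt8 limit, so they can hold cells with 2 or fewer Krt8 counts, host cells among them. The macrophage gate of RKP itself had Cdh1 at 4350 CPM. The part of such cells in these ratios was not tested. Cells with Cdh1 but little Epcam were thus infrequent in both sections, and cells with Krt19 but little Epcam made up a larger share in EKP than in RKP.

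Set beside the panel, the members stood among the genes with lower levels in Epcam-low cells. Of the 278 genes kept in EKP, those above the highest negative control probe and at 100 CPM or more in either class, 48 (17.3%) were at least 2-fold lower and 100 (36%) at least 2-fold higher. In RKP 60 of 284 (21.1%) were lower and 86 (30.3%) higher. Of the 4 members, 3 were at least 2-fold lower in each section, Cdh1, Krt19 and, by the rule, Epcam. Cdh1 was 15th by this ratio in EKP and 30th in RKP, and Krt19 was 40th and 29th. Krt8 was not 2-fold lower, but both classes required 3 or more Krt8 counts, which holds its ratio up. Krt8 was 3.08-fold lower in EKP and 4.53-fold in RKP with the Cdh1 anchor, and 1.73-fold and 2.18-fold with the Krt19 anchor. Those anchors set no limit on Krt8, so their classes are other sets of cells and can hold host cells. Their values are not the Krt8 ratio of the same cells without the limit. The median log2 ratio of all kept genes was 0.67 in EKP and 0.48 in RKP. The 2-fold limit describes size only.

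Other genes also had ratios that differed between the sections as much as that of Krt19. The log2 ratio of Krt19 was 1.79 lower in RKP than in EKP, 11th lowest of 259 genes kept in both sections. In all, 37 genes (14.3%) had a ratio at least 2-fold lower in RKP, and of 45 genes already 2-fold lower in EKP 8 did. For Cdh1, the log2 ratios were -3.39 in EKP and -3.15 in RKP.

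**Figure D5:**
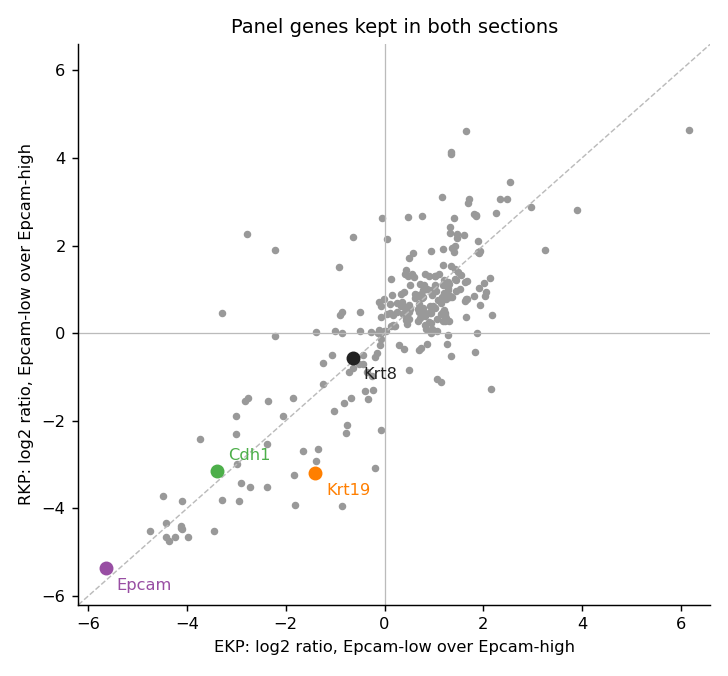
Log2 ratio of Epcam-low over Epcam-high levels in EKP (horizontal axis) and RKP (vertical axis) for each of the 259 genes kept in both sections, with the 4 members in colour or black and equal ratios on the dashed line. Cdh1 lies near the diagonal at -3.39 and -3.15, and Krt19 lies below it at -1.40 and -3.19.

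Most genes of a list of other epithelial genes, chosen with earlier results of these data known, were low in the same cells. A separate list of 4 squamous markers was mixed. The 1 kept in EKP was at least 2-fold lower, and of the 2 kept in RKP 1 was 2-fold higher and 0 lower. Of 17 listed epithelial genes on the panel other than the members, 13 of the 14 kept in EKP were at least 2-fold lower in Epcam-low cells. In RKP 16 of the 17 kept were, and the shares over all kept genes were 17.3% and 21.1%. The median log2 ratios were -4.11 and -4.34, and none was 2-fold higher. In EKP, Cldn2, Cldn3, Cldn7, Muc20 and Gabrp reached 100 CPM only in Epcam-high cells, so the filter itself kept them on the lower side. The same held in RKP for at least Agr2, at 54 CPM in Epcam-low and 544 in Epcam-high cells. The RKP share is therefore also raised by the filter. The listed genes not kept in EKP, Agr2, Cdhr5 and Tm4sf4, had log2 ratios of -0.06, 0.46 and 0.70. Together, the 17 listed genes on the panel took 0.681% of all counts in Epcam-low and 7.57% in Epcam-high cells of EKP, and 1.09% and 12.98% in RKP. Cldn4, a tight junction claudin, stood at 1204 against 22785 CPM in EKP and 1009 against 25389 in RKP. Gpa33, a surface antigen of gut epithelium, stood at 540 against 9333 CPM and 328 against 7197, and Ctse, a gastric cathepsin, at 300.2 against 6746 and 552 against 7299. Muc1 and Muc4, membrane mucins, had log2 ratios of -2.95 and -4.36 in EKP and -3.83 and -4.73 in RKP. The single gene between the limits in each section, named after its value was seen, was Lgr5, a stem cell receptor, at -0.20 in EKP, and Sox9, a transcription factor, at -0.68 in RKP.

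Of the 12 listed mesenchymal genes on the panel, 6 were at least 2-fold higher in each section and 6 lay between the limits, with median log2 ratios of 1.02 in EKP and 0.79 in RKP. These shares are set against 36% and 30.3% for all kept genes. S100a4 stood at 24170.4 against 4161 CPM in EKP and 37159 against 3413 in RKP. Cav1, the caveolae scaffold, had log2 ratios of 1.89 and 1.84, and Snai1 (named after its values were seen) and Snai2 of 1.47 and 1.90 in EKP and 2.16 and 2.10 in RKP. To complete the list, Twist1, Cnn1, Mmp2 and Mmp9 had 1.18, 0.69, 1.66 and 0.81 in EKP. In RKP they had 0.29, -0.37, 1.19 and 0.38. Whether Snai1 or Snai2 act on the members was not tested. Acta2, smooth muscle actin, at 0.45 and 0.20, and Cd44, a hyaluronan receptor, at -0.10 and -0.28, lay between. Sox2, on the list although it is a stem cell transcription factor and not a mesenchymal marker, had log2 ratios of 0.77 in EKP and 2.68 in RKP. It is therefore among the 6 higher genes of RKP but not among those of EKP. Tagln, an actin-binding protein of smooth muscle, stood on opposite sides of 0, at 0.87 in EKP and -0.24 in RKP. Of 4 cell cycle genes, 2 in EKP and 0 in RKP were 2-fold higher, with median log2 ratios of 1.05 and 0.87.

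Among genes at 500 CPM or more in the higher class of each section, those farthest from 0 in both sections were, on the lower side besides Epcam, Prom1, Muc4, Cldn7, Cldn4 and Gabrp. Prom1, a membrane glycoprotein of cell protrusions, was 26.8-fold lower in EKP and 22.9-fold in RKP. On the higher side were Bmp2, S100a4, Aif1l, Snai2, Clec4a3 and F13a1. Bmp2, a secreted ligand of the BMP pathway, stood at 3094 against 393 CPM in EKP and 3962 against 540 in RKP. Clec4a3, a lectin of myeloid cells, was 3.79-fold and 3.68-fold higher, and F13a1, a coagulation factor chain made by macrophages, 3.599-fold and 6.34-fold.

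Markers of host cells were higher in the Epcam-low class. The 24 markers took 7.41% of counts in Epcam-low and 3.74% in Epcam-high cells of EKP, and 5.06% and 3.17% in RKP. Of the kept markers, 12 of 20 in EKP and 12 of 22 in RKP were at least 2-fold higher, against 36% and 30.3% of all kept genes. None of the 24 was at 0. Macrophage markers took 1.14% against 0.627% in EKP and 1.85% against 0.839% in RKP, with 9.66% and 8.20% in the macrophage gates. Fibroblast markers took 5.19% against 2.66% in EKP and 2.47% against 1.90% in RKP, with 12.0% and 11.02% in the fibroblast gates. In cells where the host list was at most 2% of counts the Cdh1 ratio was 0.1003 in EKP and 0.0504 in RKP. The part of host cells in the levels of the members, beyond that comparison, was not tested.

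Between the sections, none of the 4 members differed by 2-fold in Krt8-positive or in Epcam-high cells. In all Krt8-positive cells the ratio of RKP to EKP was 0.832 for Cdh1, 0.986 for Epcam, 0.878 for Krt8 and 0.825 for Krt19. None of these reached 2-fold, against 40 of 282 kept genes (14.2%) at least 2-fold lower in RKP. Genes at least 2-fold higher in RKP were not counted, so these shares cover the lower side only. In Epcam-high cells the ratios were 0.825, 0.980, 0.870 and 0.880, with 38 of 273 genes (13.9%) at least 2-fold lower. In Epcam-low cells Cdh1 had a ratio of 0.971 (0.942 to 1.00), Epcam of 1.20 and Krt8 of 0.919, while Krt19 had 0.254 (0.2503 to 0.258), with 55 of 281 genes (19.6%) at least 2-fold lower. The order of the sections for Krt19 was thus EKP above RKP in these 3 classes, by 1.14-fold in Epcam-high and 3.93-fold in Epcam-low cells. With 1 section of each line, a difference between the lines cannot be told apart from one between these sections.

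As a description over Krt8-positive cells, which come from 1 section of each line and differ in depth, genes were ranked by the mean over both sections of the correlation of scaled log counts. By that mean the gene most like Cdh1 was Epcam, with a Pearson correlation of 0.732 in EKP and 0.687 in RKP, followed by Cldn4 at 0.657 and 0.591, although in RKP alone Prom1 (0.610) and Krt19 (0.602) were above Cldn4. For Epcam the order by the mean was Cldn4 at 0.746 and 0.730, then Cdh1, then Krt19 at 0.606 and 0.789, while in RKP alone Krt19 was the closest of these. Krt19 was closest to Epcam. Krt8 was closest to Krt19 at 0.571 and 0.459, then to Epcam at 0.479 and 0.440.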

How the data were processed

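The authors deposited, for each of the 2 sections, a matrix of gene counts per segmented cell, with negative control probes and codewords kept apart. Values were used as deposited. Seurat 4.4.0 is named, per the submitters' processing notes, with no role. How cells were segmented is not stated in the labels, doublets were not called, and cell positions were not used.

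Cells with 80 or more gene counts were kept. Krt8-positive cells had 3 or more Krt8 counts, Epcam-low cells 0 or 1 Epcam count. Summed counts were scaled to 1000000 gene counts (CPM). For a ratio of 2 sums the 95% interval came from the exact binomial test conditional on their total, and for a share from the Clopper-Pearson method. Cells of a section are not replicates, so no p-value was computed. The interval was tested only on simulated independent Poisson counts, the model it assumes, so that test does not cover variation between cells or places. Genes were kept when above the highest of 20 negative control probes and at 100 CPM or more in either class. Gates took cells with 2 or fewer Krt8 counts and 5 or more counts of 1 host list, at least 2 times those of every other list.

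All 4 members were named in every comparison. Beside them stand the 6 genes in each direction with the largest ratio in both sections at 500 CPM or more, the 4 genes most like each member by Pearson correlation of log counts scaled to 100 a cell, and the up to 6 best expressed genes of each list. The members, lists and limits were chosen with earlier results of these data known. Alternatives were other limits on depth, Krt8, Epcam and host-list counts, thinning, another scaling and no filter on low values. Python 3.11.15, numpy 2.4.6, scipy 1.17.1 and pandas 2.3.3 were used.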

Additional observations from a re-analysis of the deposited data

Results flagged for a closer look

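Tagln, which encodes an actin-binding protein of smooth muscle, had Epcam-low over Epcam-high log2 ratios on opposite sides of 0, at 0.87 in EKP (14571 against 7985 CPM) and -0.24 in RKP (3632 against 4294 CPM). It was not alone: Cnn1 (0.69 and -0.37), Des (0.75 and -0.34), Myh11 (0.40 and -0.36) and Mylk (0.30 and -0.28) also changed sign. Acta2 (0.45 and 0.20) and Myl9 (1.06 and 0.05) did not. The difference between the sections was not tested, since each line had 1 section.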

How the results depend on the processing

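No paired analysis was possible because each line had 1 section. Of 76 values under alternatives, 18 counts of genes at least 2-fold lower stayed within 1.5 times (34 to 56 in EKP, 48 to 80 in RKP), 58 levels, ratios or shares moved beyond their counting intervals, and 0 changed direction. With Cdh1 in EKP, Krt19 in EKP, Cdh1 in RKP and Krt19 in RKP in that order, the Epcam-low over Epcam-high ratios were 0.0862, 0.343, 0.104 and 0.0913 in cells with 160 or more counts. They were 0.0736, 0.459, 0.0573 and 0.0747 with 10 or more Krt8 counts, and 0.0771, 0.3635, 0.0874 and 0.0704 with Epcam-low at 0. Thinning each cell to 80 counts gave 0.302, 0.5915, 0.339 and 0.373, where 0 or 1 count admits cells with more Epcam. Host-list counts of at most 2% gave 0.1003, 0.769, 0.0504 and 0.0691, and the same limit without Col1a1, chosen after seeing the data, 0.0816, 0.433, 0.0616 and 0.0811. Scaling without the 4 members gave 0.0847, 0.336, 0.1001 and 0.0973, and Epcam-high at 5 or more 0.0878, 0.358, 0.105 and 0.103. The share of Epcam-low cells in EKP and RKP was 22.1% and 21.8% at 160 or more counts, 10.1% and 7.82% with 10 or more Krt8 counts, 19.4% and 18.8% at Epcam 0, 27.3% and 28.04% after thinning, 7.29% and 16.6% with few host-list counts and 17.2% and 17.7% without Col1a1. In Krt8-positive cells the RKP over EKP ratios of Cdh1 and Krt19 were 0.828 and 0.838 at 160 or more counts, 0.825 and 0.862 with 10 or more Krt8 counts, 0.8275 and 0.7996 after thinning, 0.714 and 0.737 with few host-list counts, 0.816 and 0.835 without Col1a1, 0.8185 and 0.811 scaled without the members, and 0.789 and 0.781 as unscaled counts per cell. Except where a setting's construction is given, the cause of each shift was not tested. Depth limits single cells: at 80 counts a cell, Cdh1 was detected in 69.1% of RKP Epcam-high cells.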
